A study of Arabidopsis thaliana with 18 samples.

Results

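The 100 genes described here were at their lowest 2 h after abscisic acid (ABA) and were higher again at 4 h. Together they took 0.827% to 2.37% of all transcript signal in mock-treated Arabidopsis seedlings, 0.318% to 0.667% after 2 h of ABA and 0.801% to 1.36% after 4 h. They include genes of the evening side of the circadian clock, genes of sugar starvation and darkness, salicylic acid and defence genes, genes of low oxygen, nitrogen and metal transporters, and the ABA receptor gene PYL4. They were chosen by their measured levels: for each gene the mean TPM (a level scaled for transcript length and for the total of each library) was taken over 6 libraries at mock, at 2 h and at 4 h. Genes with a mean of at least 5 TPM at both mock and 4 h were kept, and they were ranked by log2 of the lower of those 2 means plus 1 over the 2 h mean plus 1. The first 100 of the 13745 genes that met the minimum were taken, of 32833 in each file.

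The libraries came from whole seedlings aged 2 weeks, grown on half-strength MS medium with sucrose. WT was Columbia (Col-0), and bro1-1 was a single T-DNA line, SALK_204462C, with its insertion in an intron of AtBro1 (AT1G73390), a gene of the Bro1-like domain family. Each genotype was sampled as mock (0 µM ABA), after 2 h and after 4 h of 100 µM ABA, with 3 libraries described as independent biological replicates in each of the 6 groups. The hour at which mock seedlings were harvested is not given in the sources used here, so the time of day and the ABA treatment cannot be told apart in any comparison over time.

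ABA is the stress hormone of plants. It binds receptors of the PYR/PYL family, which block PP2C phosphatases and so free SnRK2 kinases to act on ion channels and transcription factors. The circadian clock sets many transcripts by the hour: CCA1 and LHY are high near dawn and repress evening genes through the evening element in their promoters. Sugar starvation and darkness raise a set of genes for the recycling of amino acids, and salicylic acid raises defence genes such as PR1.

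Totals of expected counts per library lay between 15568034 and 17853178. The libraries that stand apart for these genes were WT mock replicate 2 and bro1-1 mock replicate 3, in which they held 2.37% and 2.20% of all TPM, against 0.827% to 1.39% in the other 4 mock libraries. The 11 sugar starvation genes of a list made after the values were seen summed to 18503 and 15115 TPM in those 2 libraries and to 3782 to 11298 TPM in the other 4. bro1-1 mock replicate 3 also held 887 TPM of 5 seed storage transcripts, which summed to at most 21.9 TPM in any other library. The ABA markers RAB18, RD29A, RD29B, COR15A and HAI1 summed to at most 105.4 TPM at mock and to at least 7070 TPM in every ABA library. AtBro1 was measured at 11.2 to 18.5 TPM in WT mock and 8.02 to 10.4 TPM in bro1-1 mock, and at 243 to 391 TPM in the ABA libraries of WT against 104 to 143 TPM in those of bro1-1. Root markers, 9 genes, summed to 752 to 2280 TPM in WT and 1025 to 2412 TPM in bro1-1, and 8 shoot markers to 19286 to 52512 TPM and 21846 to 51875 TPM, with none of either list at 0 throughout.

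**Figure D1:**
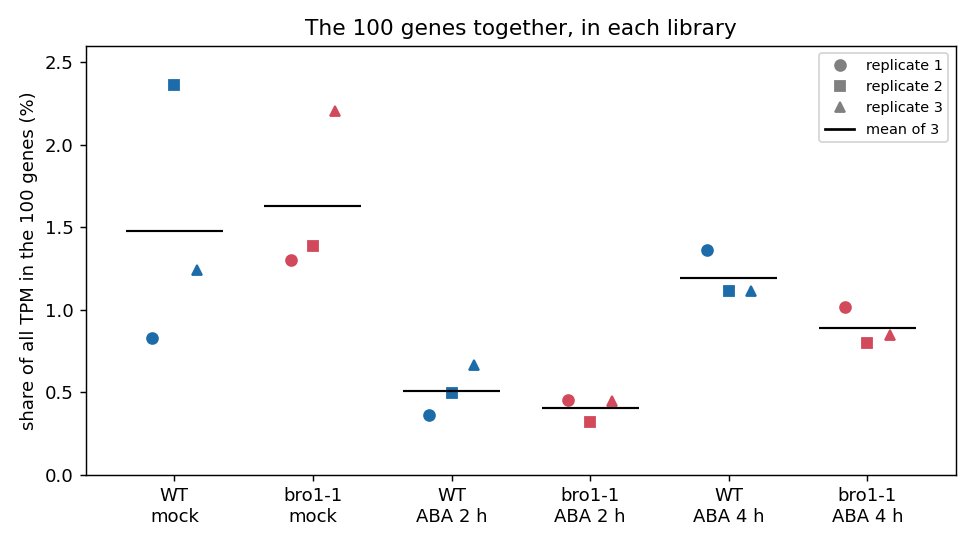
Share of all TPM taken by the 100 genes in each library, in percent, by genotype and treatment. Points are libraries (circle, square and triangle for replicates 1, 2 and 3) and bars are means of 3. The 6 libraries at 2 h lie between 0.318% and 0.667%, below all mock and 4 h libraries, and 2 mock libraries lie above 2%.

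Over the 100 genes the rank value ran from 3.20 to 0.91 with a median of 1.06. As a description of what the selection used, the median change from mock to 2 h was -1.40 on the log2(TPM + 1) scale and that from 2 h to 4 h was 1.16. The median of the gene means was 29.0 TPM at mock, 8.37 TPM at 2 h and 24.1 TPM at 4 h, whereas over all genes meeting the minimum it was 24.4, 22.7 and 24.2 TPM. The return was nearly complete for many of them: 49 had a 4 h mean above 90% of the mock mean and 12 a 4 h mean below 50% of it. By the net change from mock to 4 h, 68 genes lay within 0.5 of 0 on the log2 scale, 6 above and 26 below.

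For 30 of the 100 genes all 6 libraries at 2 h lay below all 12 others, against 218 of all 13745 genes meeting the minimum (1.59%). The selection ranked on these same values, so this is a description and nothing is read from the excess. With both mock libraries that stand apart left out, an alternative chosen after seeing the data that can only keep or raise the count, 31 of the 100 had all 2 h libraries below all others. In bro1-1 the 2 h mean was the lowest of the 3 for all 100 genes and in WT for 97. A gene was called where edgeR gave an adjusted p under 0.05 with a fold change above 1 on the log2 scale in size. The calls are given beside the share of all genes tested, and nothing is read from these counts because the selection used these contrasts. At 2 h against mock 39 of 96 tested were called lower in WT (6.8% of all genes) and 67 of 95 in bro1-1 (8.45%). At 4 h against 2 h 35 of 95 were called higher in WT (2.12%) and 12 of 95 in bro1-1 (0.56%). At 4 h against mock 5 of 96 were called either way in WT (20.9%) and 14 of 96 in bro1-1 (23.8%).

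The genes just inside and just outside the 100 differed little. ERF105, AT5G40720, AT4G13540, AT1G32928 and BT5, at ranks 96 to 100, had rank values of 0.92, 0.91, 0.91, 0.91 and 0.91. WAK1, AT3G47800, AT4G01600, AT3G50650 and AT4G37520, the 5 genes that came next, had values of 0.91, 0.91, 0.90, 0.90 and 0.90. When 1 library at a time was left out of the ranking, 76 to 96 of the 100 were found again, and 43 stayed in all 18 of these rankings. The ranking on the 9 WT libraries alone held 62 of them and that on the 9 bro1-1 libraries alone 51, with 29 in both. Without both mock libraries that stand apart, 69 were found again.

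Clock and light genes made up 10 of the 100, by roles assigned by hand after the values were seen. They were JMJ30, AT4G33980, PCC1, COL9, COR27, CCL, GRP7, PRR3, ELF3 and AT1G07050. PCC1 is also in the salicylic acid list described below. JMJ30 encodes a histone demethylase of the evening phase of the clock. JMJ30 stood at 3.88, 87.8 and 7.37 TPM in WT mock (replicates 1, 2 and 3) and at 10.9, 13.8 and 98.7 TPM in bro1-1 mock. After 2 h of ABA it was at 4.69, 7.07 and 8.43 TPM in WT and 17.5, 6.32 and 4.66 TPM in bro1-1. After 4 h it was at 78.2, 74.6 and 60.1 TPM in WT and 50, 27.5 and 33.9 TPM in bro1-1. Its 2 h libraries thus stood with 4 of the 6 mock libraries, and the mock mean rested on WT replicate 2 and bro1-1 replicate 3. All 6 libraries at 4 h were above every 2 h library. Without those 2 mock libraries JMJ30 was at rank 3146 instead of 4.

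AT4G33980 is annotated as an uncharacterized protein and was placed here by hand. The mock levels of AT4G33980 were 28.7, 106 and 61.4 TPM in WT replicates 1, 2 and 3 and 76.6, 94.9 and 84.3 TPM in bro1-1. The 2 h levels were 10.7, 14.5 and 26.7 TPM in WT and 19.0, 4.82 and 5.85 TPM in bro1-1. The 4 h levels were 76.2, 64.3 and 68.6 TPM in WT and 57.0, 26.9 and 27.9 TPM in bro1-1. All 6 of its 2 h libraries were below all 12 others. COR27, a cold-regulated gene of the evening, had means of 159, 61.2 and 169.8 TPM at mock, 2 h and 4 h, and its mock libraries spread from 35.2 to 293 TPM, which overlapped the 2 h libraries. COL9, a CONSTANS-like repressor of flowering, had means of 69.8, 18.4 and 66.0 TPM. Its highest 2 h library, at 32.4 TPM, was just below its lowest mock library, at 32.8 TPM.

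ELF3, a subunit of the evening complex of the clock, was at 14.7 to 23.2 TPM in the 2 h libraries and at 26.4 TPM or more in all others. PRR3, a pseudo-response regulator of the evening, was at 9.68 to 14.1 TPM at 2 h and at 14.2 TPM or more elsewhere. For both, the 2 h libraries did not overlap the rest. GRP7, a glycine-rich RNA-binding protein under clock control, had means of 3586, 732 and 1422 TPM and so remained at 39.6% of mock at 4 h. CCL, the CCR-like gene, had means of 2465, 1223 and 2412 TPM, and AT1G07050, a CCT motif gene, 30.5, 15.7 and 37.3 TPM. The fall of AT1G07050 to 2 h was in bro1-1 (log2 -1.74), while in WT its mean hardly changed (log2 -0.02).

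CCA1 of the dawn side of the clock, which is not among the 100, was higher at 2 h than at mock. It was at 21.2, 4.80 and 7.05 TPM in WT mock and 7.24, 8.49 and 1.01 TPM in bro1-1 mock, at 85.6, 68.2 and 43.7 and 66.3, 94.1 and 85.0 TPM at 2 h, and at 18.9, 19.7 and 30.04 and 20.3, 29.5 and 41.8 TPM at 4 h. All 6 of its 2 h libraries were above all 12 others. In the 2 mock libraries that stand apart CCA1 was at 4.80 and 1.01 TPM and JMJ30 at 87.8 and 98.7 TPM, the lowest and the highest values of the mock libraries. Of 19 clock genes in a list made with the design, 1 (ELF3) was among the 100. At 2 h against mock 6 of the 19 were called higher in WT (10.9% of all genes) and none lower, with 7 called higher (13.4%) and ELF3 called lower in bro1-1. Their median log2 fold change was 0.52 in WT and 0.56 in bro1-1, where that of all genes was -0.04 and -0.04. CCA1, PRR9, RVE1, RVE6 and LNK1 were called higher in both genotypes. ELF4, another subunit of the evening complex, was called higher at 2 h in WT, with 46.0 to 96.2 TPM over the 6 mock libraries, 74.8 to 233 TPM at 2 h and 324 to 718 TPM at 4 h. The evening genes LUX, BOA and GI were called in neither genotype at 2 h against mock, and for each of them the 2 h libraries overlapped the mock libraries. RVE4, of the same family as CCA1, was at 88.9 to 130.3 TPM in mock and at 57.2 to 70.6 TPM at 2 h, with no overlap, and was not called in either genotype.

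The evening element, AAATATCT on either strand, lay within 250 bases before to 50 after the annotated start in 11 of the 100 genes and in 861 of the 13716 genes meeting the minimum that were placed in TAIR10.1 (6.28%). The 11 were JMJ30, PCR1, AT4G33980, BT2, COR27, AT1G17665, AT3G13175, AT1G77020, CCL, GRP7 and PBL1. Of the 10 clock and light genes, 5 were among them. The windows before the start of COR27, GRP7, CCL and BT2 are shown, because these hold the matches upstream of the start in the clock genes and in the highest ranked starvation gene. Capitals mark the element or its reverse complement, read from RefSeq's TAIR10.1 in the direction of the gene. A match describes letters only.
COR27 (chr5:17200074-17200113, minus strand): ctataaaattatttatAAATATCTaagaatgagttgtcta
COR27 (chr5:17199911-17199945, minus strand): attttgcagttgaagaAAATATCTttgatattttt
COR27 (chr5:17199926-17199965, minus strand): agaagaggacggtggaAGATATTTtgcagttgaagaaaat
GRP7 (chr2:9266564-9266603, minus strand): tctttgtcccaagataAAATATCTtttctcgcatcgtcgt
GRP7 (chr2:9266610-9266649, minus strand): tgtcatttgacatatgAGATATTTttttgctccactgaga
GRP7 (chr2:9266589-9266628, minus strand): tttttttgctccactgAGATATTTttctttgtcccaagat
CCL (chr3:9827574-9827613, plus strand): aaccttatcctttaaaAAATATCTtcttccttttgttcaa
BT2 (chr3:17910893-17910932, minus strand): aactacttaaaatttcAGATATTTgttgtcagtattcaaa

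The 3 matches of COR27 and the 3 of GRP7 lay within 187 bases of the start, and some of these windows overlap. The other 12 motifs were searched in the same windows on both strands. ACGTG, the core of the ABA response element, lay in 37% of the 100 and 28.2% of all. GATAAG, the I-box of light-regulated genes, lay in 23.0% and 15.8%, and TATAAA in 60.0% and 50.9%. TTGAC, the W-box core, lay in 43.0% and 50.1%, and CACGTG, the G-box, which also holds ACGTG, in 6.0% and 9.18%. TGGGCC, the site II element, lay in 9.0% and 21.1%, and CCGAC, the DRE core, in 7.0% and 16.7%. AAAAATCT, the other site of CCA1, lay in 6.0% and 8.36%, GCCGCC in 1.0% and 2.65%, TGTCTC in 8.0% and 12.8%, CGCGT in 8.0% and 9.8%, and AAACCCTA in 4.0% and 5.64%.

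**Figure D2:**
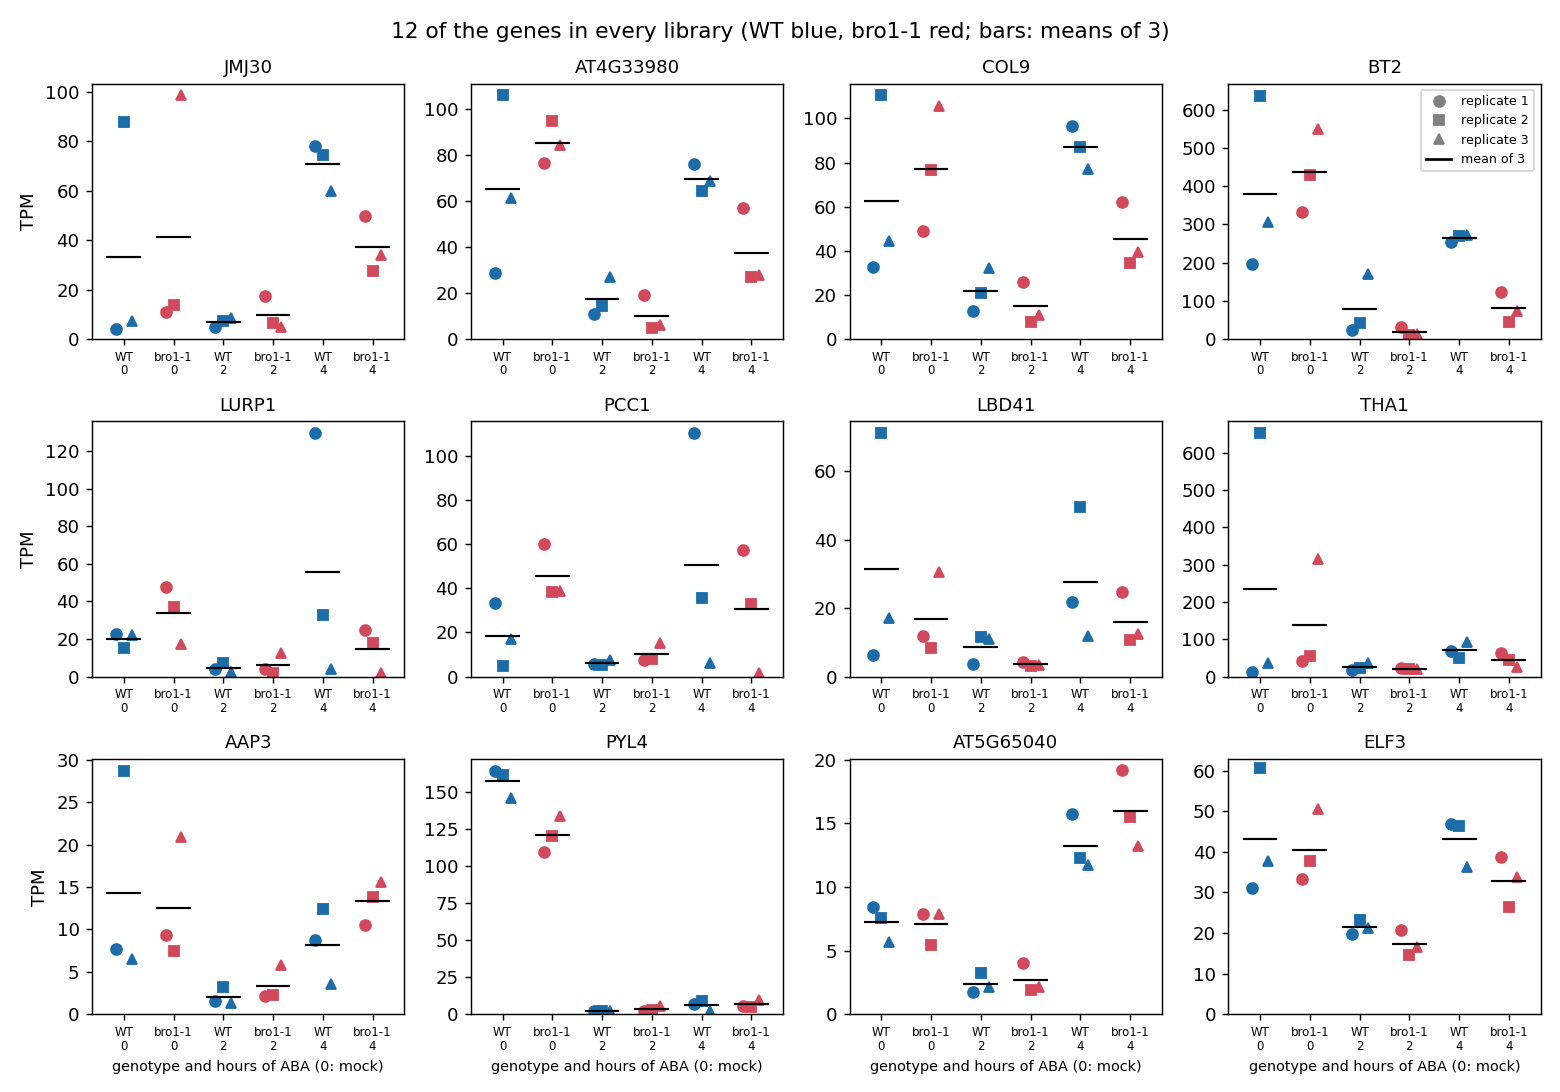
TPM of 12 of the genes in every library, by genotype and hours of ABA (0 is mock), with 3 replicates per group as circle, square and triangle and bars at the mean of 3. JMJ30 and THA1 are high in 1 mock library of each genotype, AT4G33980 and ELF3 are low in all 6 libraries at 2 h, LURP1 and PCC1 spread widely at 4 h, and PYL4 is far below mock at both 2 h and 4 h.

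Genes of sugar starvation and darkness were 5 of the 100, namely BT2, THA1, DIN11, DYL1 and BT5. BT2 and BT5 encode BTB and TAZ domain proteins, a family with 4 members among the genes meeting the minimum, and BT2 links sugar, nitrate and hormone signals. In mock seedlings BT2 had 197, 637 and 307 TPM in WT replicates 1, 2 and 3 and 332, 430.1 and 549 TPM in bro1-1. At 2 h it had 23.7, 42.7 and 170.0 TPM in WT and 30.4, 10.7 and 12.8 TPM in bro1-1. At 4 h it had 253, 270.0 and 271 TPM in WT and 124, 44.6 and 73.0 TPM in bro1-1. The 2 h libraries of bro1-1 were at a small fraction of mock, and in WT the third replicate at 2 h lay near the lowest mock library. Its 4 h mean was 42.2% of mock.

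THA1, threonine aldolase, was high in the 2 mock libraries that stand apart, at 652 and 315 TPM, against 11.8 to 55.3 TPM in the other 4. Its 2 h libraries held 18.8 to 35.3 TPM and its 4 h libraries 25.8 to 93.6 TPM, so that both times overlapped the other mock libraries. Without the 2 libraries THA1 was at rank 243 instead of 27. DYL1, the dormancy-associated gene, had means of 1693, 286 and 635 TPM and remained at 37.5% of mock, and DIN11, a dark-inducible oxygenase, had means of 9.64, 2.13 and 6.23 TPM. BT5 had the smallest rank value of the 100, with means of 79.0, 41.3 and 78.4 TPM. From mock to 2 h its mean fell in bro1-1 (log2 -2.47) and hardly changed in WT (log2 0.02). It was in the list in 6 of the 18 rankings that leave out 1 library. Of the 11 genes of the starvation list, 4 (BT2, THA1, DIN11 and DYL1) were among the 100. At 2 h against mock 4 of the 11 were called lower in WT (6.8% of all genes) and 10 in bro1-1 (8.45%), and none was called higher. Their median log2 fold change was -1.96 in WT and -3.24 in bro1-1. The list was made after the values were seen, and its 4 members, all among the 10 called in bro1-1, were selected on this contrast. Nothing is read from these counts and medians. At 4 h against 2 h THA1 was called higher in WT and none in bro1-1. Most of the list was also low after 4 h: against mock 6 were called lower in WT (7.41% of all genes) and 8 in bro1-1 (8.24%), and DIN2 was called higher in bro1-1. The medians were then -2.11 in WT and -2.68 in bro1-1. Among the 4 members DIN11 was lower in WT by this test, and DYL1 and BT2 in bro1-1.

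Salicylic acid and defence genes were 11 of the 100. They were LURP1, PCR1, AT3G22235, ACD6, AT5G03350, GRXS13, AT1G35710, AT1G58602, PR1, PBL1 and AT1G32928. LURP1 is needed for defence against the oomycete of downy mildew. LURP1 stood at 22.9, 15.2 and 22.4 TPM in WT mock (replicates 1, 2 and 3) and at 47.5, 37.3 and 17.5 TPM in bro1-1 mock. After 2 h of ABA it was at 4.21, 7.13 and 2.66 TPM in WT and 3.89, 1.80 and 12.8 TPM in bro1-1. After 4 h it was at 129, 32.9 and 4.27 TPM in WT and 24.9, 18.1 and 1.85 TPM in bro1-1. At 4 h WT replicate 1 was the highest of the 18 libraries, whereas WT replicate 3 and bro1-1 replicate 3 lay within the range of the 2 h libraries.

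The same 4 h libraries lay apart for other genes of this group and for PCC1, a small protein named for its control by pathogens and the clock. PCC1 was at 110.0, 35.4 and 6.08 TPM in WT and 57.0, 32.8 and 1.83 TPM in bro1-1 at 4 h, and at 5.31 to 15 TPM at 2 h. PCR1, PLANT CADMIUM RESISTANCE 1, was at 256, 67.9 and 4.09 TPM and 70.9, 25.9 and 1.93 TPM at 4 h. AT3G22235, a cysteine-rich transmembrane gene 7585 bases from PCC1 on chromosome 3, was at 643, 161 and 40.0 TPM and 248, 172 and 6.03 TPM. PCC1 and AT3G22235 may share reads if their sequences are alike, which the counts cannot show. For these 3 genes WT replicate 1 was the highest library at 4 h and bro1-1 replicate 3 the lowest of all 18.

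PR1, the marker of salicylic acid defence, was at 59.6, 43.3 and 15.2 TPM in WT mock and 105.1, 37.8 and 19.8 TPM in bro1-1 mock, at 6.60, 16.3 and 46.1 and 12.3, 16.4 and 36.7 TPM at 2 h, and at 245, 45.7 and 10.2 and 48.1, 14.96 and 6.83 TPM at 4 h. All 3 times overlapped. ACD6, an ankyrin protein that raises salicylic acid, had means of 10.9, 3.55 and 11.52 TPM, and AT5G03350, a legume lectin gene, 13.3, 3.01 and 9.42 TPM. In contrast, AT1G58602, an NB-ARC resistance gene, PBL1, a receptor-like cytoplasmic kinase, and AT1G32928 had all 6 libraries at 2 h below the other 12. GRXS13, a glutaredoxin, had means of 38.1, 8.22 and 20.5 TPM. Of a list of 17 salicylic acid genes made after the values were seen, 6 were among the 100. All 17 were tested at 2 h against mock in both genotypes. LURP1, ACD6 and GRXS13 were called lower in WT (6.8% of all genes). In bro1-1 LURP1, PCC1, WRKY70, GRXS13 and AT5G03350 were called lower (8.45%) and EDS5 higher (13.4%). The median log2 fold change of the list was -0.27 in WT and -0.79 in bro1-1. As the selection used this contrast, nothing is read from these calls. With the 4 h libraries WT replicate 1, WT replicate 3 and bro1-1 replicate 3 left out, an alternative chosen after seeing the data, 76 of the 100 were found again.

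Low oxygen genes were 5 of the 100: LBD41, AT4G10270, FTM1, HB1 and PCO1. LBD41 is a LOB domain repressor, HB1 a nonsymbiotic haemoglobin that removes nitric oxide, and PCO1 a plant cysteine oxidase that marks ERF-VII factors for destruction in air. The mock levels of LBD41 were 6.37, 71.1 and 17.2 TPM in WT replicates 1, 2 and 3 and 11.9, 8.23 and 30.7 TPM in bro1-1. The 2 h levels were 3.57, 11.6 and 11.1 TPM in WT and 4.42, 3.23 and 3.32 TPM in bro1-1. The 4 h levels were 21.7, 49.5 and 12 TPM in WT and 24.8, 10.6 and 12.5 TPM in bro1-1. Its 2 h values in bro1-1 were below all its other libraries except WT replicate 1 at 2 h, while in WT 2 of the 2 h values overlapped mock. AT4G10270, a wound-responsive gene of the hypoxia core, had means of 7.18, 2.08 and 11.3 TPM, and FTM1, a desaturase gene, 6.30, 1.95 and 6.54 TPM. HB1 had means of 30.5, 6.32 and 14.1 TPM, and PCO1 10.4, 2.08 and 5.27 TPM. No gene of this role had its 2 h libraries apart from all others.

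Other genes of low oxygen were called in both directions. Of a list of 13 made after the values were seen, 12 were tested at 2 h against mock in WT and 11 in bro1-1. ADH1, PDC1 and SUS1, enzymes of fermentation and sucrose use, were called higher in both genotypes (10.9% of all genes in WT, 13.4% in bro1-1). HRE1 was called lower in both, HB1 and PCO1 in WT and LBD41 in bro1-1 (6.8% of all genes in WT, 8.45% in bro1-1). The median log2 fold change of the list was -1.37 in WT and -0.94 in bro1-1. For the members of this list the selection used the same contrast, so nothing is read from their calls.

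**Figure D3:**
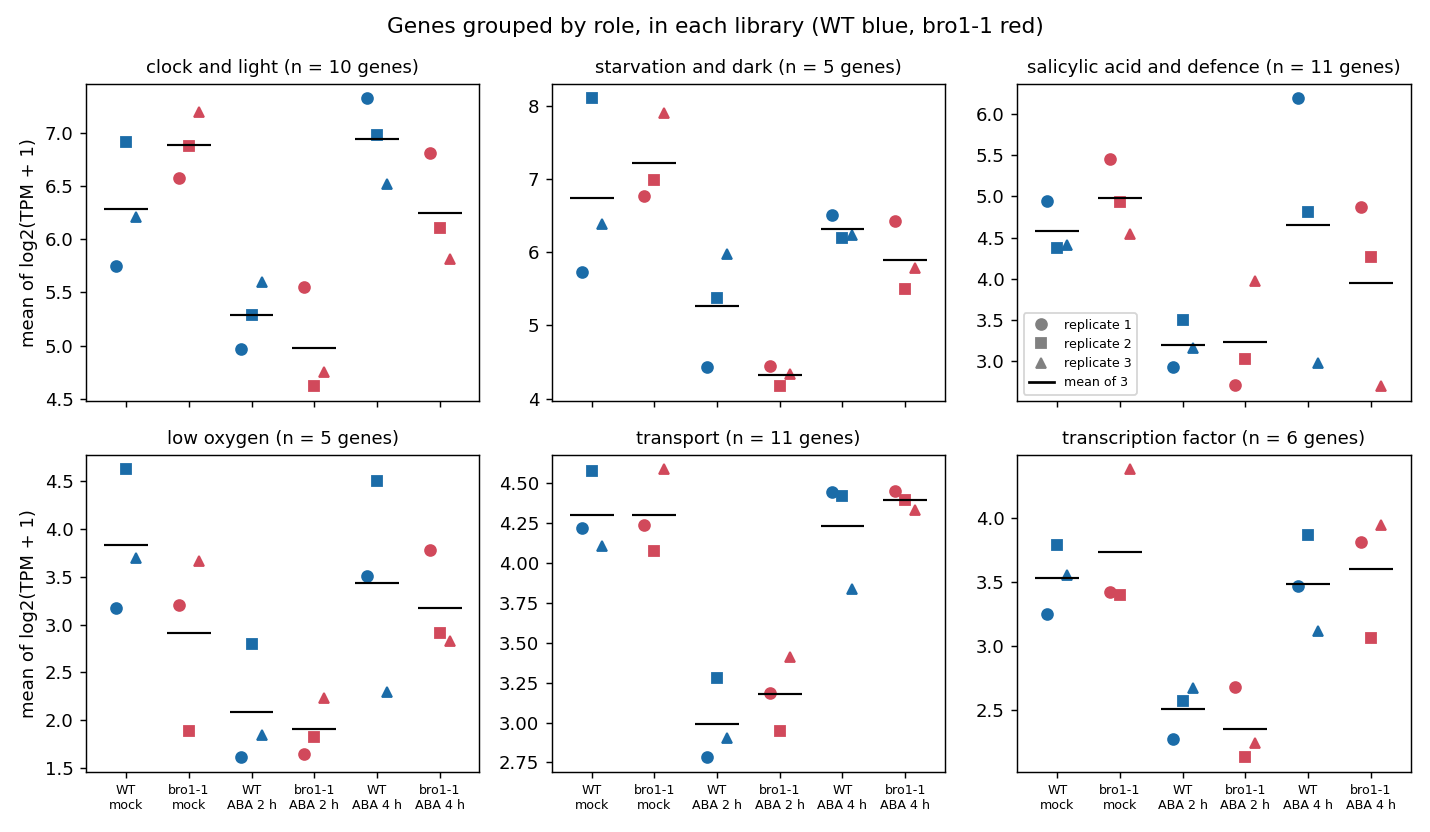
Mean of log2(TPM + 1) over the genes of 6 roles in each library, by genotype and treatment, with replicates as circle, square and triangle and bars at the mean of 3 libraries. The clock and light genes (n = 10) run from 4.61 to 5.60 at 2 h and from 5.75 to 7.33 in all other libraries, and the salicylic acid and defence genes (n = 11) from 2.70 to 6.19 at 4 h.

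Transport genes were 11 of the 100: AAP3, AT5G61520, GDU1, AMT1;1, AT1G68600, UMAMIT40, AT5G60800, CAT2, IRT3, NAS1 and NRT1.5. AAP3 is an amino acid permease of the vascular tissue. In mock seedlings AAP3 had 7.68, 28.7 and 6.5 TPM in WT replicates 1, 2 and 3 and 9.30, 7.51 and 20.9 TPM in bro1-1. At 2 h it had 1.55, 3.20 and 1.33 TPM in WT and 2.19, 2.25 and 5.77 TPM in bro1-1. At 4 h it had 8.71, 12.4 and 3.56 TPM in WT and 10.5, 13.8 and 15.6 TPM in bro1-1. Mock and 4 h overlapped, and WT replicate 3 at 4 h overlapped the 2 h libraries. GDU1, which promotes amino acid export, had means of 8.91, 3.13 and 10.9 TPM, and the cationic amino acid transporter CAT2 79.2, 40.0 and 81.5 TPM. AT5G61520, a sugar transporter of the major facilitator family, was at 5.59 to 11.6 TPM at 2 h and at 15.3 TPM or more in the other 12 libraries. AMT1;1, which takes up ammonium, UMAMIT40 and AT5G60800 also had their 2 h libraries below all others.

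The xylem nitrate transporter NRT1.5 had means of 26.5, 8.96 and 18.1 TPM. NAS1, which makes the metal chelator nicotianamine, had means of 18.6, 8.74 and 17.8 TPM, and IRT3, a zinc and iron transporter, 20.2, 9.91 and 20.3 TPM. AT1G68600, of the malate transporter family, had means of 5.51, 2.04 and 8.19 TPM. For 10 of the 11 the net change from mock to 4 h was within 0.5 on the log2 scale.

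The transcription factor role, assigned by hand, held 6 genes: ERF104, AHL19, AT1G29160, HB-8, ERF6 and ERF105. LBD41, a LOB domain repressor, was placed under low oxygen instead. ERF104, ERF6 and ERF105 are ethylene response factors that respond early to wounding and elicitors. ERF104 was at 19.7, 54.6 and 39.3 TPM in WT mock and 29.6, 33.0 and 76.2 TPM in bro1-1 mock, at 24.1, 30.1 and 21.0 and 13.5, 10.3 and 7.84 TPM at 2 h, and at 72.1, 65.8 and 62.0 and 65.3, 15.1 and 45.8 TPM at 4 h. The 2 h libraries of bro1-1 were below all others, and those of WT overlapped mock. Of 28 early wound and elicitor genes in a list made with the design, these 3 were among the 100. At 2 h against mock 13 of the 28 were called higher in WT (10.9% of all genes) and none lower, and 8 higher (13.4%) and 5 lower (8.45%) in bro1-1, with medians on the log2 scale of 0.82 in WT and 0.23 in bro1-1. The 5 were ERF6, ERF104, ERF105, TCH3 and WRKY70. In mock the list summed to 1765 TPM in WT replicate 2 and 2889 TPM in bro1-1 replicate 3, against 709 to 889 TPM in the other 4 libraries.

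AHL19, an AT-hook gene, had means of 9.31, 3.26 and 8.52 TPM, HB-8, the class III homeodomain factor of the vascular cambium, 10.8, 4.28 and 9.54 TPM, and AT1G29160, a Dof gene, 6.97, 2.80 and 6.89 TPM. For AT1G29160 the 2 h libraries did not overlap the others.

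PYL4 and SNRK2.3 are part of ABA signalling itself. PYL4 encodes an ABA receptor. PYL4 stood at 164, 162 and 146 TPM in WT mock (replicates 1, 2 and 3) and at 109, 121 and 134 TPM in bro1-1 mock. After 2 h of ABA it was at 2.3, 2.00 and 1.99 TPM in WT and 2.25, 2.72 and 5.88 TPM in bro1-1. After 4 h it was at 7.32, 9.14 and 2.43 TPM in WT and 6.01, 5.21 and 10.01 TPM in bro1-1. The 4 h values were higher than the 2 h values in most libraries but stayed far below mock, with a 4 h mean of 4.8% of the mock mean, the lowest of the 100. PYL4 was therefore among the 100 by its small rise at low level. SNRK2.3 encodes a kinase that the receptors release, and had means of 53.6, 24.4 and 47.3 TPM. Its mock libraries of 33.6 to 73.6 TPM overlapped the 2 h libraries of 18 to 38.3 TPM.

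Small noncoding RNAs were 5 of the 100, and the first ranks rested on few reads. AT1G06397 (chr1:11040576-11040721, minus strand, TAIR10.1), a snoRNA of rank 1, overlaps AT1G30970. The mock levels of AT1G06397 were 61.5, 108 and 0 TPM in WT replicates 1, 2 and 3 and 3.29, 52.7 and 197 TPM in bro1-1. The 2 h levels were 0, 0 and 27.2 TPM in WT and 0, 0 and 0 TPM in bro1-1. The 4 h levels were 33.1, 78.0 and 21.4 TPM in WT and 56.3, 31.3 and 79.7 TPM in bro1-1. Its expected counts were at most 9.22 in any library, and at 2 h at most 1.62. AT3G04184, an annotated protein-coding gene of 162 bases at rank 2, had at most 5 counts in any library and 0 in all 6 at 2 h, but also 0 in 6 of the other 12. The snoRNAs AT2G09465 and AT1G06033, which overlap AT2G43375 and AT1G26880, had at most 3.93 and 2 counts. For these 4 genes, whose 2 h counts were all at or under 3, a difference between times was not detectable at this depth.

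MIR2936 and MIR834 are microRNA loci. Libraries of this kind do not measure mature microRNAs, and without a stated strand reads of overlapping genes cannot be told apart. MIR2936 lies inside SAG21 (chr4:1046042-1047105, minus strand), a late embryogenesis abundant gene of senescence and oxidative stress that is itself among the 100. MIR2936 had means of 2226, 660.0 and 1610.1 TPM and SAG21 1376, 423 and 1029 TPM. For both all 6 libraries at 2 h were below all others, and in both the highest libraries were WT mock replicate 2 and bro1-1 mock replicate 3. MIR834 lies inside AT5G08230 and had means of 23.9, 3.56 and 11.4 TPM.

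The other 45 genes had no shared role. AT5G65040, of the DUF581 family, had the largest net gain. In mock seedlings AT5G65040 had 8.41, 7.53 and 5.72 TPM in WT replicates 1, 2 and 3 and 7.89, 5.48 and 7.90 TPM in bro1-1. At 2 h it had 1.79, 3.27 and 2.17 TPM in WT and 4.01, 1.93 and 2.18 TPM in bro1-1. At 4 h it had 15.7, 12.3 and 11.7 TPM in WT and 19.2, 15.5 and 13.2 TPM in bro1-1. Its 2 h libraries were the lowest, and its 4 h libraries were above all mock libraries, at 204% of the mock mean. ACHT5, an atypical chloroplast thioredoxin, had means of 32.0, 6.48 and 22.8 TPM, and AT4G26288, uncharacterized, 29.5, 8.39 and 29.1 TPM. PPDK, pyruvate orthophosphate dikinase, had means of 139, 36.1 and 102 TPM, and its mock mean included 339 TPM in WT replicate 2. OASA2, a cysteine synthase homologue, had means of 29.1, 10.6 and 27.8 TPM, and AT1G28660, a GDSL lipase, 40.9, 11.49 and 36.0 TPM.

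Of these 45 genes 17 had their 2 h libraries below all others, including SAG21, AT4G35750, AT1G78110, AT1G17665, GLYI4, HCAR and ZCF37. HCAR, a reductase of the chlorophyll cycle, was at 9.54 to 14.8 TPM at 2 h and at 15.4 to 48.5 TPM elsewhere. AT4G35750, a SEC14 family gene, had means of 351, 81.2 and 196 TPM. Genes with high values in WT mock replicate 2 were AGT3, an alanine:glyoxylate aminotransferase, at 236 TPM, AAE5, an acyl activating enzyme, at 239 TPM, AAE17 at 141 TPM and AT4G25580, a CAP160 gene, at 79.8 TPM. In WT mock replicate 1 they were at 40.5, 48.2, 12.5 and 0.59 TPM.

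By net change from mock to 4 h, 1 of the 45 was above 0.5 on the log2 scale, 31 were within it and 13 below. AT4G38550 and AT2G20950 are 2 of the 5 PEARLI 4 phospholipase-like genes meeting the minimum, with means of 72.2, 26.3 and 56.5 TPM and of 16.03, 5.04 and 11.48 TPM at mock, 2 h and 4 h. The DnaJ chaperone genes AT1G72416 and AT1G77020 had means of 40.6, 8.35 and 18.4 TPM and of 13.2, 4.49 and 10.2 TPM. SRG3, a senescence-related gene, had means of 38.3, 12.3 and 26.8 TPM. Genes of unknown role included AT1G10140, with 33.9, 16.8 and 32.8 TPM, and AT4G22505, annotated in the lipid transfer superfamily, with 53.0, 22.2 and 52.8 TPM.

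Over the 100 genes the highest of the 6 mock libraries was WT replicate 2 for 49 and bro1-1 replicate 3 for 27. For 37 the mean of these 2 libraries was over 2 times that of the other 4. The highest of the 6 libraries at 4 h was WT replicate 1 for 47.

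Other features are described with no test. The median of the mean coefficient of variation within groups was 36.6%, against 16.1% over the genes meeting the minimum. The median transcript length was 1407 bases against 1638 bases, and the median number of exons 3 against 5. A single exon was annotated for 28 of the 100 (28%) and 1376 of the 13716. Genes overlapping another annotated gene were 30 of the 100 and 33.4% of all. They lay on all 5 chromosomes, with 29 on chromosome 1, 14 on chromosome 2, 17 on chromosome 3, 19 on chromosome 4 and 21 on chromosome 5, where all genes had 26.0%, 15.2%, 20.01%, 15.4% and 23.4%. Apart from MIR2936 in SAG21, 4 pairs of neighbouring members had less than 20000 bases between them, namely AT2G40085 with AT2G40095, PCC1 with AT3G22235, AMT1;1 with AT4G13540 and MIR834 with scpl35.

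Whether bro1-1 differed from WT was not ranked on in the selection, which averaged both genotypes, and could be tested. The minimum of 5 TPM was also set on both genotypes together, so some members met it through 1 genotype only. For those members a genotype difference is partly given by the selection. No member was called in any of the 6 comparisons by edgeR's quasi-likelihood test with the thresholds given above, and 94 to 96 of the 100 passed its filter on low counts in each. At mock 0 of 96 members tested were called (0.0153% of all genes), with 6 at an unadjusted p under 0.05 (1.19% of all). At 2 h 0 of 94 were called (0.0308%), with 21 at an unadjusted p under 0.05 (7.15%). At 4 h 0 of 96 were called (0.0202%), with 38 at an unadjusted p under 0.05 (2007 of the 19801 genes tested). This last count fell to 20 without WT replicate 1 at 4 h (5.67% of all genes), to 25 without bro1-1 replicate 3 at 4 h (6.39%) and to 24 with all 18 libraries in 1 fit (10.5%). Over all 18 libraries 0 of 96 were called (0.0485%), with 16 at an unadjusted p under 0.05 (6.5%). No gene at all was called in the interaction of genotype with the fall to 2 h (0%) or with the rise to 4 h (0%), where 15 and 7 of 96 members had an unadjusted p under 0.05 (5.12% and 3.12% of all). DESeq2 called 5 of 95 members at 2 h (73 of 20609 genes), 5 of 96 at 4 h (267 of 19815) and 2 of 99 in the interaction of the fall (15 of 25107). It called no member in the other 3 comparisons. There it called 6 of 24296 genes at mock, 22 of 23597 over all 18 libraries and 1 of 25119 in the interaction of the rise.

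At 4 h members were mostly lower in bro1-1. Over the members bro1-1 differed from WT by a median of -0.45 on the log2 scale, and over all genes by -0.01, with 70 members lower and 26 higher. At mock the median was 0.12, with 63 higher and 33 lower, and at 2 h it was -0.09, with 37 higher and 57 lower. Root markers summed to 752 to 1157 TPM in WT and 1340 to 2412 TPM in bro1-1 at 4 h, and shoot markers to 19286 to 26656 TPM and 21846 to 31366 TPM. Their part in the difference was not tested. As RNA was taken from whole seedlings, fewer cells of a type and less RNA per cell cannot be told apart.

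By role, the 10 clock and light genes were all higher in bro1-1 at mock (median log2 0.41) and all lower at 4 h (median -0.73), with 1 of the 10 at an unadjusted p under 0.05 at mock and 6 at 4 h. Salicylic acid and defence genes were higher for 9 of 11 at mock (median 0.61) and lower for 9 of 11 at 4 h (median -0.95). Of the 11, 2 had an unadjusted p under 0.05 at mock and none at 4 h. Their mean of log2(TPM + 1) at 4 h was 6.19, 4.81 and 2.97 in WT (replicates 1, 2 and 3). In bro1-1 it was 4.87, 4.27 and 2.70, so the genotypes overlapped. AT1G35710 did not meet the minimum in bro1-1 alone and was kept through WT. The selection favours a lower bro1-1 estimate for that gene. The 5 low oxygen genes had lower estimates in bro1-1 at mock (median -1.01) and at 4 h (median -0.39), none with an unadjusted p under 0.05 at either. Of these, AT4G10270, FTM1 and PCO1 did not meet the minimum of 5 TPM in bro1-1 alone and were kept through WT. The selection thus favours lower bro1-1 estimates for them, and nothing is read from the direction. In WT mock replicate 2 LBD41 was at 71.1 TPM, HB1 at 82.0 TPM and PCO1 at 34.7 TPM, and without both mock libraries that stand apart the median at mock was -0.78. Of the 5 starvation and dark genes 4 were lower and 1, DIN11, higher at 4 h (median -0.95). An unadjusted p under 0.05 was found for 4 of the 5 in either direction, and DIN11 was among these. Of the 11 transport genes 6 were higher and 5 lower at both mock and 4 h. Without both mock libraries that stand apart, an alternative chosen after seeing the data, 33 members rather than 6 had an unadjusted p under 0.05 at mock (5.13% of all genes), the median over members was 0.34, and no member was called by edgeR, with a smallest adjusted p of 0.854.

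Of the clock and light genes, JMJ30 and COL9 had the smallest p-values at 4 h. JMJ30 was at 71.0 ± 9.57 TPM (SD, 3 libraries) in WT and 37.1 ± 11.6 TPM in bro1-1 (log2 -0.96, SE 0.21, adjusted p = 0.273 by edgeR's quasi-likelihood test, and 0.00835 to 0.724 over the alternatives). COL9 was at 86.9 ± 9.78 TPM in WT and 45.2 ± 14.7 TPM in bro1-1 (log2 -0.97, SE 0.22, adjusted p = 0.278 by edgeR's quasi-likelihood test, and 0.00835 to 0.724 over the alternatives). All 3 WT libraries were above all 3 bro1-1 libraries for both genes, and neither was called.

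The member nearest to the threshold was AT4G26288 at 2 h, at 9.50, 16.2 and 17.1 TPM in WT and 2.89, 1.53 and 3.09 TPM in bro1-1 (log2 -2.56, SE 0.37, adjusted p = 0.166 by edgeR's quasi-likelihood test, and 1.59e-06 to 0.683 over the alternatives). The groups did not overlap. BT2 at 4 h was at 253, 270.0 and 271 TPM in WT and 124, 44.6 and 73.0 TPM in bro1-1 (log2 -1.75, SE 0.32, adjusted p = 0.22 by edgeR's quasi-likelihood test, and 1.02e-05 to 0.559 over the alternatives). DIN11 went the other way at 4 h, at 1.74, 1.52 and 0.16 TPM in WT and 11.2, 6.80 and 15.96 TPM in bro1-1 (log2 3.27, SE 0.60, adjusted p = 0.22 by edgeR's quasi-likelihood test, and 2.59e-06 to 0.515 over the alternatives). Neither gene's groups overlapped. DIN11 met the minimum of 5 TPM only through bro1-1, so its direction is partly given by the selection.

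BT5 and ACHT5 had the smallest p-values in the interaction of genotype with the fall to 2 h. BT5 was at 34.0, 67.2 and 99.2 TPM in WT and 21.6, 11.9 and 14.1 TPM in bro1-1 at 2 h, and at 54.6, 88.4 and 54.0 and 82.4, 114 and 80.2 TPM at mock (interaction log2 -2.76, SE 0.53, adjusted p = 0.909 by edgeR's quasi-likelihood test, and 0.00222 to 1 over the alternatives). ACHT5 was at 4.41, 10.4 and 16.8 TPM in WT and 3.08, 1.69 and 2.56 TPM in bro1-1 at 2 h (interaction log2 -2.53, SE 0.59, adjusted p = 0.909 by edgeR's quasi-likelihood test, and 0.0462 to 1 over the alternatives). Both were lower at 2 h in all 3 bro1-1 libraries than in any WT library. These were the 2 members that DESeq2 called in the interaction. At 2 h DESeq2 called AT4G26288, BT5, OXS3, ACHT5 and ERF104 lower in bro1-1, and at 4 h it called BT2, AT4G25580 and AT4G26288 lower and DIN11 and AT5G10580 higher. With WT replicate 2 at 4 h left out, edgeR called AT3G62040 and AT5G10580 higher in bro1-1 at 4 h (34 of 20008 genes were called). AT4G25580 met the minimum of 5 TPM only through WT, and DIN11 and AT5G10580 only through bro1-1.

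**Figure D4:**
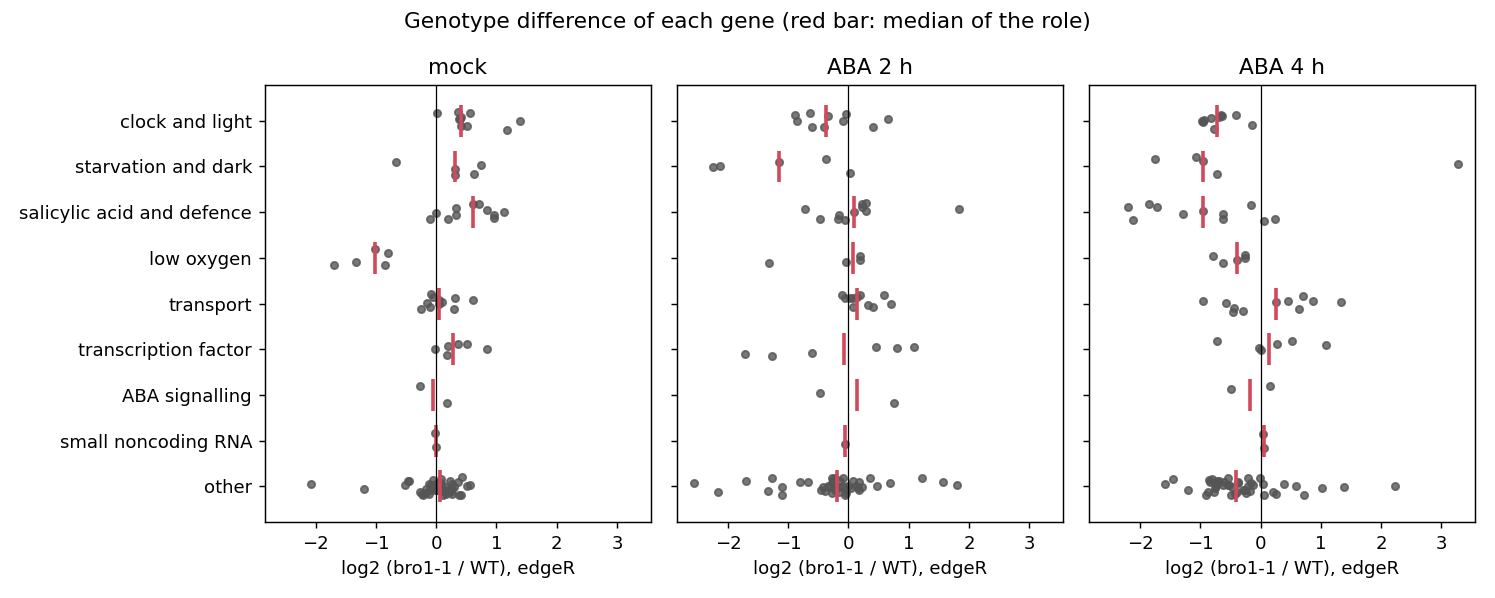
Log2 fold change of bro1-1 against WT for each gene tested, by edgeR, at mock, 2 h and 4 h of ABA, with the genes in rows by role and red bars at the median of each role. The clock and light genes lie right of 0 at mock and left of 0 at 4 h, and no gene passed the adjusted threshold.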

How the data were processed

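RNA-seq of 18 libraries was analysed, 3 in each of 6 groups taken from the labels. The authors trimmed reads with BBDUK2, removed ribosomal RNA with Bowtie2 2.3.5.1 and estimated expression with RSEM 1.2.30. The deposited expected counts per gene are not normalized between libraries, and the deposited TPM values are scaled for length within each library. The build, annotation release and strand setting are not given in the sources used here. Members were found on TPM as described, and the members and lists were chosen with earlier results of these data known.

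Expected counts were rounded and tested with edgeR 4.0.16 in R 4.3.3 (filterByExpr, TMM, quasi-likelihood test, Benjamini-Hochberg over all genes tested), on the libraries of the groups compared or, for the genotype over all times, on 18 libraries with time as a term. SE is the absolute log2 fold change over the square root of F. Expected counts came out whole in all but 1.77% to 2.06% of values. Depth was 15568034 to 17853178 counts per library. The scripts were tested on simulated data. DESeq2 1.42.0 was run in place of edgeR. Within edgeR the scaling factors, the filter, the fold change threshold, a replicate block, the pooling of all groups and each single library were varied, as was the ranking. Replicate pairs of a group all differed beyond sampling noise.

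Genes named by rule were ranks 1 to 25, members called in a genotype comparison, members of the lists, ranks 96 to 100 and the 5 that follow, the 4 best ranked of each role with at least 3 genes, and others were singled out after their values were seen, such as AT5G65040, PYL4 and the genes called by DESeq2. Roles were assigned by hand after the values were seen. All 100 members were matched to the TAIR10.1 annotation of RefSeq by identifier, which gave positions and sequences. The files give no coordinates.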

Additional observations from a re-analysis of the deposited data

How the results depend on the processing

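By edgeR no member was called in any genotype comparison when RLE scaling factors were used, when the filter or the fold change threshold was dropped, with the replicate block or, where run, with all groups in 1 fit. DESeq2 called 5 members at 2 h (73 of 20609 genes), 5 at 4 h (267 of 19815) and 2 in the interaction of the fall (15 of 25107). Leaving out 1 library gave 0 to 2 members at 4 h and 0 in the other 5 genotype comparisons. The 2 came without WT replicate 2, where 34 of 20008 genes were called. Leaving out 1 library moved the number of members at an unadjusted p under 0.05 from 6 to between 1 (without bro1-1 replicate 1) and 26 (without WT replicate 2) at mock, from 21 to between 13 and 24 at 2 h (lowest without bro1-1 replicate 3, and 14 without WT replicate 3), from 38 to between 20 and 41 at 4 h, and from 15 to between 8 (without bro1-1 mock replicate 2) and 31 (without WT mock replicate 2) in the interaction of the fall. Replicate numbers did not pair the libraries: in no pair of groups were all 3 correlations of same-numbered libraries over 0.1. With the replicate block, 0 members in place of 12 were called higher at 4 h against 2 h in bro1-1 (2 of all 19815 genes in place of 111), and no genotype call of a member changed.

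Counts over time were less steady, and at 4 h against 2 h those over all genes, given in brackets, moved widely too. At 4 h against 2 h DESeq2 called 54 members higher in WT (631 of 20159 genes) and 46 in bro1-1 (414 of 20280). No filter gave 20 in bro1-1 (170 of 24476), and leaving out 1 library gave 14 to 38 in WT and 0 to 24 in bro1-1. The low of 14 came without WT replicate 1 at 4 h (143 of 19746), and 17 without WT replicate 1 or 2 at 2 h (166 of 19762 and 274 of 19726). In bro1-1 the count was 0 without replicate 2 or 3 at 2 h or replicate 1 at 4 h, where 0, 0 and 2 of all genes were called. It was 3 without replicate 2 at 4 h (37 of 20051), 7 without replicate 3 at 4 h (54 of 20014) and 24 without replicate 1 at 2 h (247 of 20058). At 2 h against mock leaving out 1 library gave 21 to 53 in WT and 51 to 59 in bro1-1. The low in WT came without replicate 1 at 2 h (788 of 20089) and the high without mock replicate 1 (1637 of 20020). The low in bro1-1 came without replicate 2 at 2 h (1425 of 20092). At 4 h against mock, no fold change threshold gave 10 in WT (6209 of 19880) and 24 in bro1-1 (8100 of 19958). Leaving out 1 library gave 3 to 21 in WT, with 21 without mock replicate 2 (4008 of 20136). The 3 came without mock replicate 3 (3310 of 20137) or replicate 1 at 4 h (3105 of 20189). In bro1-1 it gave 10 without replicate 2 at 4 h (4263 of 20265) to 21 without mock replicate 3 (4932 of 20254). The cause was not tested.

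Of the 100 genes, 64 were found again by medians over libraries, 62 in WT alone and 51 in bro1-1 alone. A pseudocount of 0.1 gave 88 and of 5 gave 70, a minimum of 10 TPM 71, and TMM-scaled CPM 74. At this depth the genes of few counts could not be ranked reliably.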

Other observations

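Growth hormone lists made with the design held no gene of the 100. Only 17 Aux/IAA and 11 brassinosteroid genes met the minimum, where 100 of all 13745 genes were members, so nothing is read from this absence. Over all genes edgeR's quasi-likelihood test called 6.8% lower and 10.9% higher at 2 h against mock in WT, and 8.45% and 13.4% in bro1-1. Of 28 Aux/IAA genes, repressors of auxin signalling, 24 were tested, of which 6 were called lower and 1 (IAA17) higher in WT, and 8 lower and 2 (IAA17 and IAA28) higher in bro1-1. At 4 h against 2 h none was called higher in either genotype, and those called lower at 2 h in both genotypes included IAA1, IAA2 and IAA19. Of 16 brassinosteroid genes 6 of 16 tested were called lower and 1 (BES1) higher in WT at 2 h against mock, and 5 of 15 lower and 1 (BR6OX2) higher in bro1-1. CPD, BAS1, BRI1 and BEE1 were called lower in both, and no gene of the list was called higher at 4 h against 2 h. Of 11 nitrate response genes tested 2 were called lower at 2 h against mock in WT, HRS1 and LBD38, and 4 in bro1-1, these and NIA2 and LBD39, with none higher. Of 11 jasmonate genes 10 were tested in each genotype, and 9 were called higher at 2 h against mock in WT and 10 in bro1-1, with none lower.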
